A study of Mus musculus with 16 samples.

Results

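Livers of HFD-fed Alb::GC mice were compared with livers of HFD-fed wildtype mice. Both groups were male mice of strain FvB/n on a high fat diet (HFD), and each group had 2 Affymetrix expression arrays, so 4 of the 16 arrays of the series enter the comparison. A further 4 arrays, 2 per genotype from mice given a low fat diet (LFD), shared the estimate of the spread and are given beside the HFD values. The other 8 arrays came from a separate experiment on TTR::Fv2E-PERK mice and took no part in the tests. The sources used here do not give ages, the length of feeding or the number of animals behind each array, so p-values measure only the spread between these arrays, which may be technical.

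The integrated stress response (ISR) begins when a kinase such as PERK phosphorylates the translation initiation factor eIF2α. Protein synthesis then slows, while a set of stress transcripts is translated and transcribed. The Alb::GC transgene is known to express an active fragment of GADD34, the eIF2α phosphatase subunit encoded by Ppp1r15a, from the albumin promoter. The response is thereby dampened in hepatocytes, and other liver cells are not targeted. In liver, the ISR is linked to lipid storage through C/EBP factors and the nuclear receptor PPARγ, which turns on genes of lipid uptake and lipid droplets. The comparison asks which transcripts of the HFD-fed liver differ between the genotypes. Whether a difference depends on the ISR was not tested.

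Each array carries a ratio per probe set, centred near 1, with a median of 0.94 to 0.97 on the HFD arrays. Differences are log2(ratio + 0.05) of Alb::GC minus wildtype, with the standard error of the fit, and absolute levels cannot be read from such ratios. Of 64 control probe sets, 18 measure RNA that is spiked in at hybridization. All 18 were lower in Alb::GC without overlap, by a median of -0.72 on HFD and -0.72 on LFD, with array medians of 1.54 and 1.33 in HFD wildtype against 0.95 and 0.855 in HFD Alb::GC. Their part in the results was not tested, but a scaling on the spike-ins raised the median of the HFD differences by 0.63, so directions below are relative to the bulk of each array. Of 48 gene lists described or plotted here, 27 had a median below 0, and on that scaling 24 of the 27 turned above 0. The 3 that stayed below 0 were lipid droplet and uptake (-0.39), female-biased (-0.13) and neutrophil genes (-0.11). The log2 difference between the 3' and 5' control probe sets of beta-actin was -0.62 and -0.71 in HFD wildtype against -0.33 and -0.44 in HFD Alb::GC. Log2 values of replicate arrays correlated across probe sets at 0.655 in wildtype against 0.635 in Alb::GC, which describes the arrays and is no test. The 12 measured hepatocyte markers had summed ratios of 13.5 and 13.8 in wildtype against 12.8 and 13.1 in Alb::GC. None reached 2-fold on the log2 scale used, but 5 did not overlap on the lower side and 3 on the higher. Over all genes those shares were 21.6% and 24.9%. Apob came closest to 2-fold, at 1.1 and 1.21 against 0.44 and 0.7 (-0.99 ± 0.34, limma, adjusted p = 0.362). On the spike-in scaling Apob was at -0.36. Ppp1r15a itself had ratios of 0.51 and 0.53 in wildtype against 0.8 and 0.72 in Alb::GC, a difference of 0.51 ± 0.23 that did not pass (limma, adjusted p = 0.49). As the position of that probe set against the GADD34 fragment could not be read here, it is no check of the genotype.

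On HFD, the genes past the threshold included Cidec, Pparg, Lgals1, Esm1 and Slc22a29, which were lower in Alb::GC, and Hsd3b5, Tbx15, Egfr and Cela1, which were higher. Of 22626 probe sets, 30 passed an adjusted p of 0.05 (limma, Benjamini-Hochberg), or 0.133% of those tested. Of these, 8 (0.0354% of all) were higher and 22 (0.0972%) lower in Alb::GC, with differences of 1.24 to 4.25 in size and adjusted p of 0.0259 to 0.0489. The arrays of the groups did not overlap for any of the 30. In all, 26 of the 30 had a gene symbol, for 6 genes higher and 20 lower. For 19 genes the probe set that represents the gene passed, 4 of them higher (0.0323% of genes) and 15 lower (0.121%), together 0.153%. These calls rest on every array of the fit: leaving out any of the 8 arrays, LFD arrays included, left 0 probe sets past the threshold, with smallest adjusted p of 0.0543 to 0.142, and quantile normalization or a fit of the 4 HFD arrays alone also left 0. With arrays centred on their spike-ins, 1573 were called higher and 60 lower, and 27 of the 30 were still past the threshold. All 30 kept their direction, which was fixed in advance. That scaling adds 0.63 to each difference, and the smallest called was 1.24 in size. At an unadjusted p under 0.05 the count was 2525 probe sets.

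**Figure D1:**
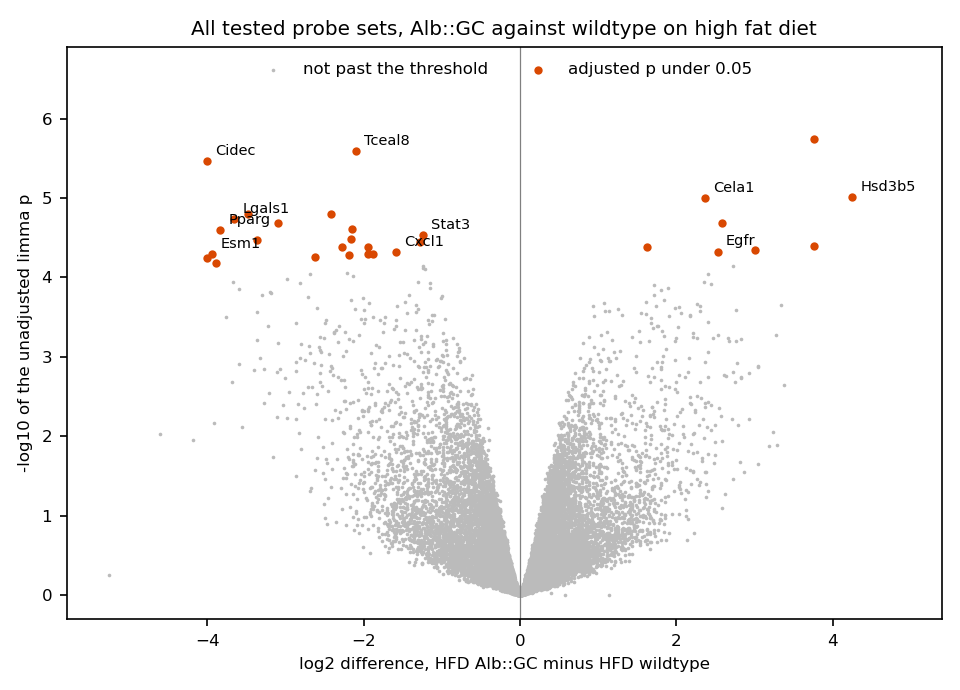
All 22626 tested probe sets by log2 difference (Alb::GC minus wildtype on HFD, horizontal axis) and by the negative log10 of the unadjusted limma p (vertical axis). The 30 orange points passed an adjusted p of 0.05, 22 on the lower and 8 on the higher side, and 10 gene symbols are written beside them.

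A second, descriptive count took differences of at least 2-fold whose arrays did not overlap. It held 1755 probe sets, or 7.76% of all, with 741 higher and 1014 lower. With each of 12393 genes given by a single probe set, 381 genes (3.07%) were higher and 477 (3.85%) lower by this rule. Arrays that did not overlap at any size made up 24.9% of genes on the higher and 21.6% on the lower side, and the median difference over all genes was 0.02. These shares are the background for the list counts that follow.

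Lipid droplet and lipid uptake genes were lower in HFD Alb::GC liver. Of 15 measured members, 8 were lower by at least 2-fold and none higher, 13 did not overlap on the lower side, and the median difference was -1.03, against 0.02 over all genes. Cidec, whose protein FSP27 coats and enlarges lipid droplets, passed the threshold. Its ratios were 15.87 and 14.73 in HFD wildtype against 0.92 and 0.89 in HFD Alb::GC, and both LFD groups lay at 0.56 to 1.08. The HFD wildtype arrays thus stood alone, and the genotype difference was -4.01 ± 0.26 (limma, adjusted p = 0.0259). Pparg, the gene of PPARγ, passed as well. It had ratios of 6.13 and 6.02 in HFD wildtype against 0.54 and 0.26 in HFD Alb::GC, and the difference was -3.84 ± 0.35 (adjusted p = 0.044). On LFD the Pparg ratios were 1.13 and 1.88 in wildtype against 0.5 and 0.59 in Alb::GC, so Alb::GC was the lower genotype on both diets, with an LFD difference of -1.35 that did not pass. Cd36, a fatty acid transporter, had ratios of 13.59 and 13.42 against 1.99 and 1.03, a difference of -3.19 ± 0.40 just short of the threshold (adjusted p = 0.0678). Its other probe sets gave -2.81 and -2.00, so all 3 lay well below 0. Cidea, a second droplet protein that is abundant in brown fat, showed the widest gap in ratio, with 64.42 and 60.39 against 4.84 and 1.29. That difference of -4.61 ± 1.25 did not pass (adjusted p = 0.254). Mogat1, which makes diacylglycerol from monoacylglycerol, stood at 4.81 and 5.11 against 0.94 and 0.56 (-2.69 ± 0.31, adjusted p = 0.0559).

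Promoters of Cidec, Pparg and Cd36 are shown because they are the 2 lipid genes past the threshold and the fatty acid transporter whose 3 probe sets were all lower in value. Pparg was listed with the C/EBP factors, not with the droplet genes. They are RefSeq windows of 300 bases from GRCm38.p6, each read on the strand of its gene. Capitals mark matches, on either strand, to TTGCNNAA, a core C/EBP motif, or to AGGTCA, the half-site of nuclear receptors such as PPARγ.
Cidec, start 2 of 2, chr6:113434715-113435014, minus strand: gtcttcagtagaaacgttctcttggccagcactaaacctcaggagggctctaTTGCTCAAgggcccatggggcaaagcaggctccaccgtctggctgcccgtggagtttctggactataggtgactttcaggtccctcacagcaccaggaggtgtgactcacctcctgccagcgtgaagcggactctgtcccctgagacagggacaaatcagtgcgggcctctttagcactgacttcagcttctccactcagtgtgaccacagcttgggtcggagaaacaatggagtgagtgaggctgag
Pparg, start 3 of 3, chr6:115421816-115422115, plus strand: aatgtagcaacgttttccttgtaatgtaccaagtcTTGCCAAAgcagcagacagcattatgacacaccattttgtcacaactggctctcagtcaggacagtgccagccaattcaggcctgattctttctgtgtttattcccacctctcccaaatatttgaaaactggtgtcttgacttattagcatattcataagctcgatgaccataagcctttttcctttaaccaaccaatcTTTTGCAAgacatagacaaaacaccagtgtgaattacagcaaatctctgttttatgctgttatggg
Cd36, start 1, chr5:17835847-17836146, minus strand: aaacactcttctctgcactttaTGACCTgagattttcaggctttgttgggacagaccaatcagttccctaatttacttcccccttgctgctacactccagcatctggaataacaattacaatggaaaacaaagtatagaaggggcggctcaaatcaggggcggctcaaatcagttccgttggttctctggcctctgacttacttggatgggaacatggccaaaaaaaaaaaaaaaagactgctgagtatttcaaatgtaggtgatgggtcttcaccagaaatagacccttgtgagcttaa
The Cidec window holds 1 C/EBP match and the Pparg window 2, while the Cd36 window holds 1 half-site. Of 32851 promoter windows of that length, 10.8% hold the C/EBP letters and 16.3% the half-site, so such matches are common. The other Cidec start and the Mogat1 window hold neither, and Pparg starts 1 and 2 hold 1 half-site each. For Cidec and Pparg the start shown is the one that holds C/EBP matches, so its matches are not evidence about the gene. The arrays do not tell which start was used.

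Droplet genes differed among themselves. Plin4, a perilipin of adipocyte droplets, had ratios of 4.78 and 5.91 in wildtype against 1.32 and 0.45 in Alb::GC (-2.70 ± 0.44, adjusted p = 0.0923). Vldlr, a lipoprotein receptor, had 4.34 and 3.45 against 1.18 and 1.1 (-1.72 ± 0.24, adjusted p = 0.0725). By contrast, Plin2, the main perilipin of hepatocytes, stood at 0.93 and 1.01 against 0.68 and 0.65, a difference of only -0.51 ± 0.17 that did not pass and turns above 0 on the spike-in scaling. The triglyceride lipase gene Pnpla2 differed by -0.16, and Cideb and Plin5 overlapped between the groups. A 6-gene adipocyte marker list shares Cidea, Fabp4 and Lipe with the droplet genes. Those 3 were lower without overlap. Fabp4 had 3.23 and 3.12 against 2.41 and 1.06 (-0.96 ± 0.37), which did not pass, and its other probe sets gave -2.42, -0.97 and 0.19. The members Adipoq, Lep and Retn overlapped between the groups, at 0.42 and 0.99 against 1.23 and 0.22 for Adipoq. The summed adipocyte ratio of 70.6 and 67.4 in wildtype against 10.8 and 5.52 in Alb::GC is mostly Cidea. The lipid droplet list median was -0.39 on the spike-in scaling.

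**Figure D2:**
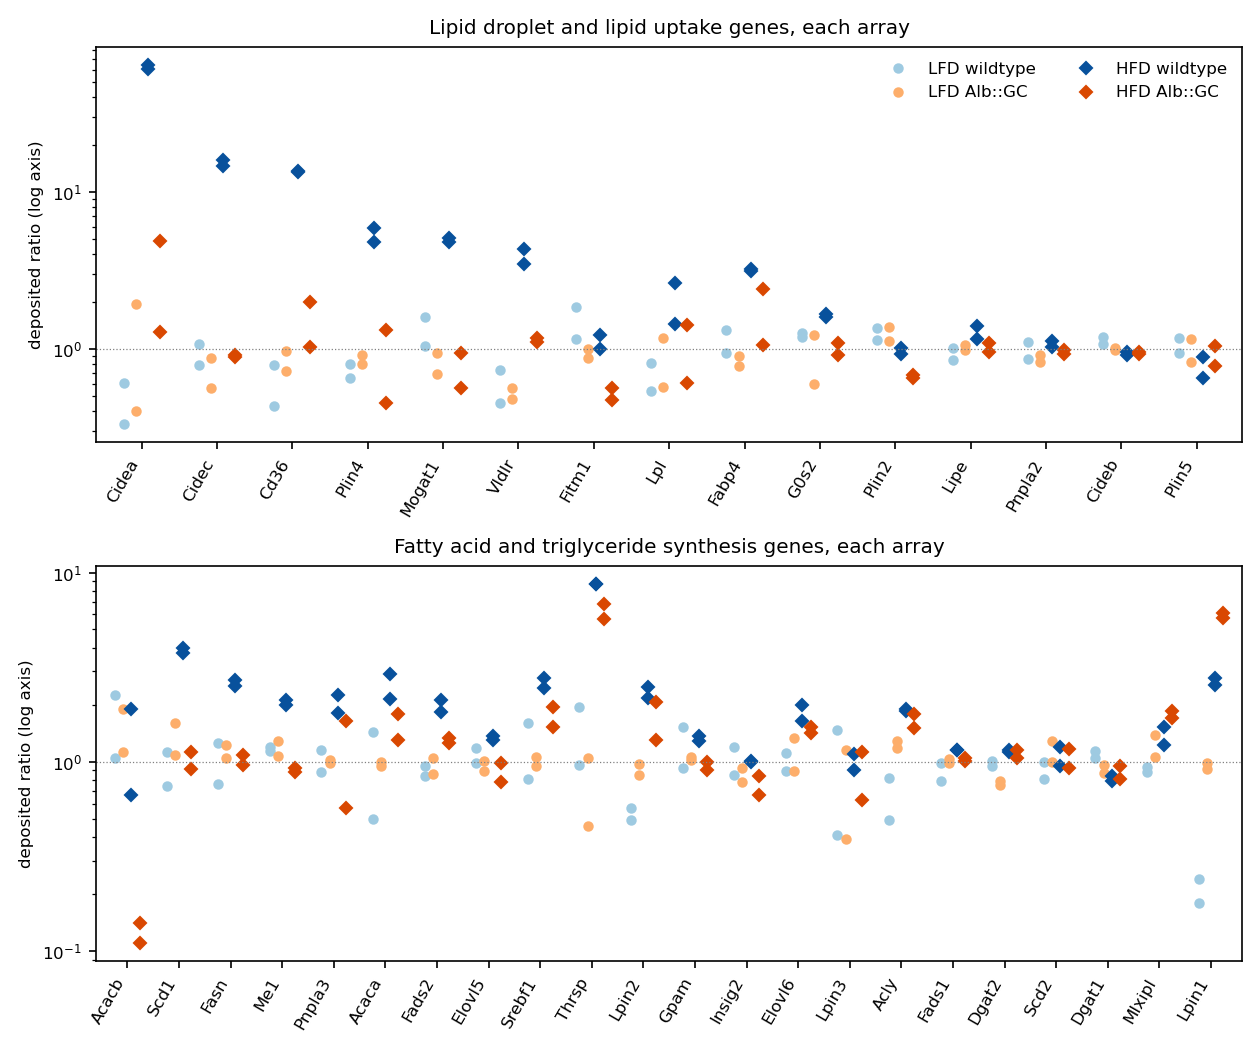
Deposited ratio of each array (log axis) for 15 lipid droplet and uptake genes (top) and 22 fatty acid and triglyceride synthesis genes (bottom), ordered by the HFD genotype difference. Points are single arrays, 2 per group, and dark blue HFD wildtype points stand above the rest from Cidea to Vldlr, while Lpin1 is highest in HFD Alb::GC. The synthesis list's median of -0.47 is 0.17 on the spike-in scaling.

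Fatty acid and triglyceride synthesis genes leaned the same way with smaller gaps. Among 22 members none passed the threshold, 5 were lower and 1 higher by at least 2-fold, and 16 did not overlap on the lower side. Their median was -0.47, but 0.17 on the spike-in scaling. Scd1, the desaturase that makes oleate, had ratios of 3.98 and 3.74 in wildtype against 0.91 and 1.12 in Alb::GC, a difference of -1.88 ± 0.27 (adjusted p = 0.0725). Its other probe set had 1.37 and 1.56 against 0.87 and 0.88 (-0.71 ± 0.14), with LFD ratios of 1.12 to 1.41. The Scd1 size is thus that of a single probe set. Me1, malic enzyme, which supplies NADPH for lipid synthesis, stood at 2 and 2.13 against 0.93 and 0.88 (-1.15 ± 0.14, adjusted p = 0.0601). Fasn, fatty acid synthase, had 2.5 and 2.7 against 1.08 and 0.96 (-1.31 ± 0.24, adjusted p = 0.115). The HFD Alb::GC ratios of Fasn and of the first Scd1 probe set lay within the range of their own LFD arrays. Those of Me1 lay below all 4 of its LFD ratios, which were 1.07 to 1.29, and another Me1 probe set gave -0.57. Acacb, an acetyl-CoA carboxylase on mitochondria, was lower still at 0.11 and 0.14, but its wildtype arrays were far apart at 0.67 and 1.91 (-2.77 ± 0.59, adjusted p = 0.16). The regulator Srebf1 stood at 2.45 and 2.76 against 1.52 and 1.95, and Acly at 1.85 and 1.91 against 1.51 and 1.78, with differences of -0.58 and -0.19 that did not pass and change sign on the spike-in scaling. Dgat2, which makes triglyceride in its final step, overlapped at 1.15 and 1.13 against 1.05 and 1.16.

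Lpin1 ran against its list. Lipin 1 is a phosphatidate phosphatase of triglyceride synthesis that also acts with PPARα and PGC-1α as a coactivator. Its ratios were 2.53 and 2.78 in HFD wildtype against 6.08 and 5.72 in HFD Alb::GC (1.14 ± 0.16, adjusted p = 0.0719), and its other probe set gave 1.31. On LFD it was also higher in Alb::GC, at 0.91 and 0.98 against 0.24 and 0.18. All 4 pairings of genotype and diet thus held separate levels, lowest in LFD wildtype and highest in HFD Alb::GC.

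Fatty acid oxidation and PPARα target genes showed no call among 20 members, with 3 lower by at least 2-fold and a median of -0.19, which is 0.44 on the spike-in scaling. Those 3 were Cyp4a14, Vnn1 and Ppara. Vnn1, a pantetheinase controlled by PPARα, had ratios of 4.1 and 4.12 in wildtype against 1.07 and 0.64 in Alb::GC (-2.24 ± 0.46, adjusted p = 0.146). Ppara had 6.85 and 6.16 against 1.25 and 3.8, so its Alb::GC arrays were far from each other. Cpt1a, the entry enzyme of mitochondrial oxidation, was high in all 4 HFD arrays at its representative probe set. Its ratios were 7.36 and 7.46 in wildtype against 7.9 and 6.72 in Alb::GC, a difference of -0.02 ± 0.67. The other Cpt1a probe sets differed by 0.02 and 0.09 and also overlapped. Their HFD ratios were 1.88 to 2.31 and 0.97 to 1.11, so the height is that of a single probe set. The high-fat-diet ratios of Cpt1a therefore overlapped between genotypes, where those of Cidec and Pparg did not.

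Male-biased liver genes, which depend on pulsatile growth hormone in male mice, were higher in HFD Alb::GC. Of 10 measured members, 6 were higher by at least 2-fold and none lower, and the median was 1.22. Hsd3b5, a male-specific hydroxysteroid dehydrogenase, passed the threshold. It was at 0.01, the smallest value in the table, in both HFD wildtype arrays and at 0.95 and 1.26 in HFD Alb::GC (4.25 ± 0.33, adjusted p = 0.044). As its wildtype value is at the floor, the size depends on the offset and ran from 2.63 to 5.79 over the settings tried. LFD ratios of Hsd3b5 were 2.12 and 1.8 in wildtype against 1.05 and 1.36 in Alb::GC. C6, a complement component with higher levels in male mice, had 0.2 and 0.18 in HFD wildtype against 1.14 and 1.29 in HFD Alb::GC (2.40 ± 0.27, adjusted p = 0.0559). Cyp7b1, an oxysterol hydroxylase, stood at 0.16 and 0.17 against 0.96 and 1.08 (2.31 ± 0.32, adjusted p = 0.0719). Slco1a1, an organic anion transporter, had 0.26 and 0.24 against 0.91 and 0.96 (1.72 ± 0.21, adjusted p = 0.0618). The HFD Alb::GC ratios of Cyp7b1 and C6 lay within the range of their own LFD arrays, while those of Slco1a1 lay below all 4 of its LFD ratios, which were 1.23 to 1.4. Elovl3, a fatty acid elongase, had 0.34 and 0.38 against 1.2 and 0.75, which was still under its LFD ratios of 3.35 to 4.51. Mup3 and Cyp4a12a overlapped between the groups, although another Mup3 probe set gave 3.19, and Mup genes share near-identical sequence.

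Among 9 measured female-biased liver genes none passed. By size, 3 were lower by at least 2-fold and none higher, 5 overlapped between the groups, and the median was -0.77. Cyp2b9, a cytochrome P450 of female liver, had ratios of 10.97 and 11.65 in HFD wildtype against 3.02 and 1.57 in HFD Alb::GC (-2.35 ± 0.35, adjusted p = 0.0832). Hao2, a hydroxyacid oxidase, had 20.78 and 22.02 against 3.72 and 1.26 (-3.27 ± 0.73, adjusted p = 0.181). Cyp2b13, the neighbour of Cyp2b9 in the same family, held the largest ratios of the list, 117.2 and 131 against 8.05 and 1.25. Its difference was -5.26, with a standard error of 8.34 from the variance model with trend, and it did not pass (adjusted p = 0.874). The reason for so large an error was not tested. Near-identical Cyp2b transcripts can share probes, so Cyp2b9 and Cyp2b13 are not certain to be separate measurements. The other 6 members, among them Cyp3a16, Cux2 and Ntrk2, differed by less than 2-fold or overlapped.

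Genes of the growth hormone and IGF axis included 4 higher by at least 2-fold out of 11, with a median of 0.50 and no call for their representative probe sets. Cish, a feedback inhibitor induced by STAT5, had ratios of 0.55 and 0.55 in HFD wildtype against 1.31 and 1.15 in HFD Alb::GC (1.09 ± 0.15, adjusted p = 0.0719). It was higher in Alb::GC on LFD too, at 2.71 and 2.27 against 0.89 and 1. Socs2, another such inhibitor, stood at 0.27 and 0.25 against 0.49 and 1.36. Igfbp2 had 0.3 and 0.33 against 0.96 and 0.86 (1.39 ± 0.31, adjusted p = 0.181). Igf1 differed by 0.50 ± 0.22, while Ghr, the growth hormone receptor, and Stat5b overlapped.

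**Figure D3:**
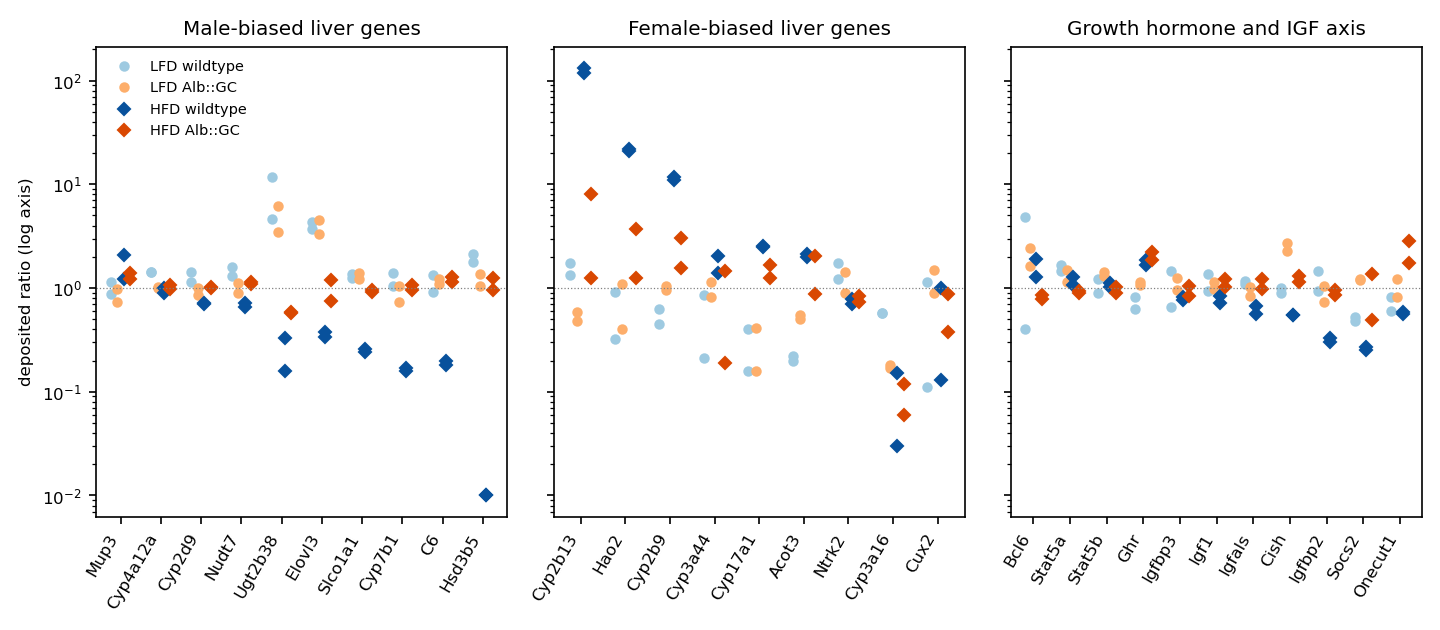
Deposited ratio of each array (log axis) for male-biased, female-biased and growth hormone axis genes, ordered within each panel by the HFD genotype difference, with 2 points per group. Dark blue HFD wildtype points lie below the other groups for Slco1a1, Cyp7b1, C6 and Hsd3b5 and above them for Cyp2b13, Hao2 and Cyp2b9.

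Onecut1, the hepatocyte transcription factor HNF6, is itself a growth hormone responsive gene, and its probe sets were both higher. The probe set past the threshold had ratios of 0.67 and 0.58 in wildtype against 3.75 and 4.19 in Alb::GC (2.58 ± 0.23, adjusted p = 0.044). The representative probe set had 0.59 and 0.56 against 1.75 and 2.85 and did not pass (1.87 ± 0.31, adjusted p = 0.0958). Egfr, the receptor of epidermal growth factor, was higher as well. Its passing probe set stood at 0.46 and 0.57 against 2.54 and 4.05 (2.53 ± 0.26, adjusted p = 0.044). Of 4 other Egfr probe sets, differences were 2.83, 1.61, -0.12 and -0.22, so 3 of 5 were higher and the others overlapped. Cela1, an elastase known from pancreas, had 0.17 and 0.23 in HFD wildtype against 1.28 and 1.19 in HFD Alb::GC (2.37 ± 0.19, adjusted p = 0.044). The LFD ratios of Cela1 were 1.65 to 2.12. None of the other 6 measured pancreas markers differed by 2-fold, and their differences lay between -0.37 and 0.80. Tbx15, a T-box transcription factor of mesoderm and adipocytes, stood at 0.17 and 0.25 against 2.07 and 1.97 (3.01 ± 0.30, adjusted p = 0.044), but its other probe set gave -0.03.

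Some complement and bile acid genes, part of them also in the male-biased list, were higher in value. Complement and coagulation genes had 3 of 17 members higher by at least 2-fold, C6, C8b and F11, and none lower, around a median of 0.00. C8b had 0.19 and 0.22 against 0.85 and 0.97 (1.91 ± 0.27, adjusted p = 0.0719). Bile acid genes had 3 of 16 higher and none lower, with a median of 0.23. Besides Cyp7b1 and Slco1a1, these included Cyp7a1, the rate-limiting enzyme of bile acid synthesis, at 0.65 and 0.72 against 1.66 and 2.06 (1.37 ± 0.34, adjusted p = 0.216). Cytochrome P450 and conjugation genes were split, with 3 higher and 5 lower by at least 2-fold among 23 and a median of 0.03. Sult5a1, a sulfotransferase, had 0.26 and 0.2 against 1.17 and 1.26 (2.18 ± 0.30, adjusted p = 0.0719). On the lower side were Cyp2b13, Cyp2b9, Cyp2c39, Cyp2b10 and Cyp2c38, at differences of -1.37 to -5.26. Transcripts of the Cyp2b and Cyp2c families are close in sequence, so these 5 may not be independent.

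Lgals1, Cxcl1, Ppbp and Stat3 were lower in HFD Alb::GC liver and passed the threshold. Lgals1, galectin 1, had ratios of 9.55 and 9.23 in wildtype against 1 and 0.48 in Alb::GC (-3.66 ± 0.32, adjusted p = 0.044), and its other probe set gave -3.20. Cxcl1, a neutrophil attractant, stood at 5.35 and 6.43 against 1.84 and 1.99 (-1.59 ± 0.16, adjusted p = 0.044). On the spike-in scaling Cxcl1 was at -0.96 with an adjusted p of 0.0537 (limma), so it no longer passed. HFD Alb::GC remained above the LFD ratios of Cxcl1, which were 0.27 to 0.37 in both genotypes. Of 14 chemokine genes, Cxcl1 was the only call, Ccl9 was the 1 member higher by 2-fold, and the list median was -0.10 (0.53 on the spike-in scaling). Ppbp, a platelet chemokine outside that list, had 3.87 and 4.6 against 1.05 and 0.75 (-2.19 ± 0.23, adjusted p = 0.044). Stat3, the transcription factor of interleukin 6 signalling, stood at 3.03 and 3.18 against 1.24 and 1.33 (-1.24 ± 0.12, adjusted p = 0.044). The other Stat3 probe sets differed by -0.36 and -0.27, so the size is that of a single probe set, and Stat3 was at -0.61 with an adjusted p of 0.0745 on the spike-in scaling.

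Acute phase genes and metallothioneins had no call among 20 members. By size, 7 were lower by at least 2-fold and none higher, 18 did not overlap on the lower side, and the median was -0.45, but 0.19 on the spike-in scaling. Orm2, an acute phase orosomucoid, had ratios of 8.43 and 9.32 in wildtype against 1.2 and 1.15 in Alb::GC (-2.86 ± 0.42, adjusted p = 0.0751). Lcn2, lipocalin 2, had 5.44 and 5.77 against 0.46 and 0.33 (-3.68 ± 0.73, adjusted p = 0.138). On LFD, Alb::GC replicate 2 stood apart at 1.48 for Lcn2 and 14.25 for Saa2, where the other 3 LFD arrays lay at 0.11 to 0.24 and 0.64 to 1.11. Fibrinogen genes, haptoglobin and hemopexin lay between -0.15 and -0.25.

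No marker of the neutrophil, erythroid, macrophage or lymphocyte lists passed the threshold, but some differed in value in the same direction as these genes. Platelets, the source named for Ppbp above, had no list. Of 8 neutrophil markers, 3 were lower by at least 2-fold and none higher. The summed ratio of the 8 was 20.9 and 18.4 in wildtype against 5.95 and 4.76 in Alb::GC. Most of the wildtype sum came from S100a8, S100a9 and Lcn2. S100a8 had 5.4 and 4.6 against 0.83 and 0.34 (-3.10 ± 0.50, adjusted p = 0.088), and S100a9 had 4.5 and 3.35 against 0.96 and 0.43 (-2.50 ± 0.36, adjusted p = 0.0751). Lcn2, which hepatocytes also make, is in this list and in the acute phase list, and Elane, a granule protease, and Csf3r, a receptor, overlapped between the groups. The erythroid genes Slc4a1 and Hbb-b2 were lower by 2.03 and 1.55 in value, while further probe sets gave -2.8 and -0.09 for Slc4a1 and -0.33 for Hbb-b2. The other 3 erythroid genes overlapped, and the erythroid sum was 12.7 and 13.2 against 7.55 and 8.16. Kupffer cell and macrophage markers had no member past 2-fold among 16, with sums of 20.6 and 20.5 against 22.7 and 14.6 that overlap. Of 12 lymphocyte markers 3 were lower by at least 2-fold, with overlapping sums of 10.1 and 11.6 against 11 and 7.56. In whole liver, fewer cells of a type and less RNA per cell cannot be told apart, and the part of these markers in the lower Cxcl1, Ppbp and acute phase values was not tested.

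Further genes past the threshold belonged to no list. Esm1, an endothelial proteoglycan, had ratios of 2.81 and 2.44 in HFD wildtype against 0.11 and 0.14 in HFD Alb::GC (-3.94 ± 0.41, adjusted p = 0.044), and the LFD arrays lay at 0.14 to 0.17. Of 11 endothelial markers, Lyve1 alone was lower by 2-fold, and the list median was 0.09. Wfdc2, a secreted protease inhibitor of epithelia, stood at 5.48 and 6.23 against 1.1 and 0.75 (-2.62 ± 0.27, adjusted p = 0.0444). Slc22a29, an organic anion transporter gene, had 10.6 and 11.21 against 1.34 and 0.77 (-3.36 ± 0.32, adjusted p = 0.044). Its probe set is of a type that can bind related transcripts, so the family member is uncertain. Tceal8 had very close replicates, 2.55 and 2.44 against 0.53 and 0.56 (-2.10 ± 0.13, adjusted p = 0.0259). Vegfb, a growth factor linked to fatty acid uptake by endothelium, had 1.75 and 1.67 against 0.69 and 0.66 (-1.28 ± 0.12, adjusted p = 0.044), which became -0.65 with an adjusted p of 0.0599 on the spike-in scaling. Gprc6a, 1700001O22Rik and Ctse were lower by 1.95, 1.95 and 1.88, and the other Ctse probe set was higher by 1.47. Ccdc80 is described with the diets below.

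For 7 genes the passing probe set was not the one that represented the gene. Among these, Onecut1 was higher in both probe sets. Pafah1b1 (-2.42), Sh3kbp1 (-2.15), Slco3a1 (-2.16), Atg7 (-2.28), Gcnt2 (-4.01) and Syt2 (1.63) each had a representative probe set whose groups overlapped, at differences of -0.48 to 0.04. Which of the probe sets follows the gene was not tested. The remaining 4 calls, 2 higher and 2 lower, had no single gene symbol.

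**Figure D4:**
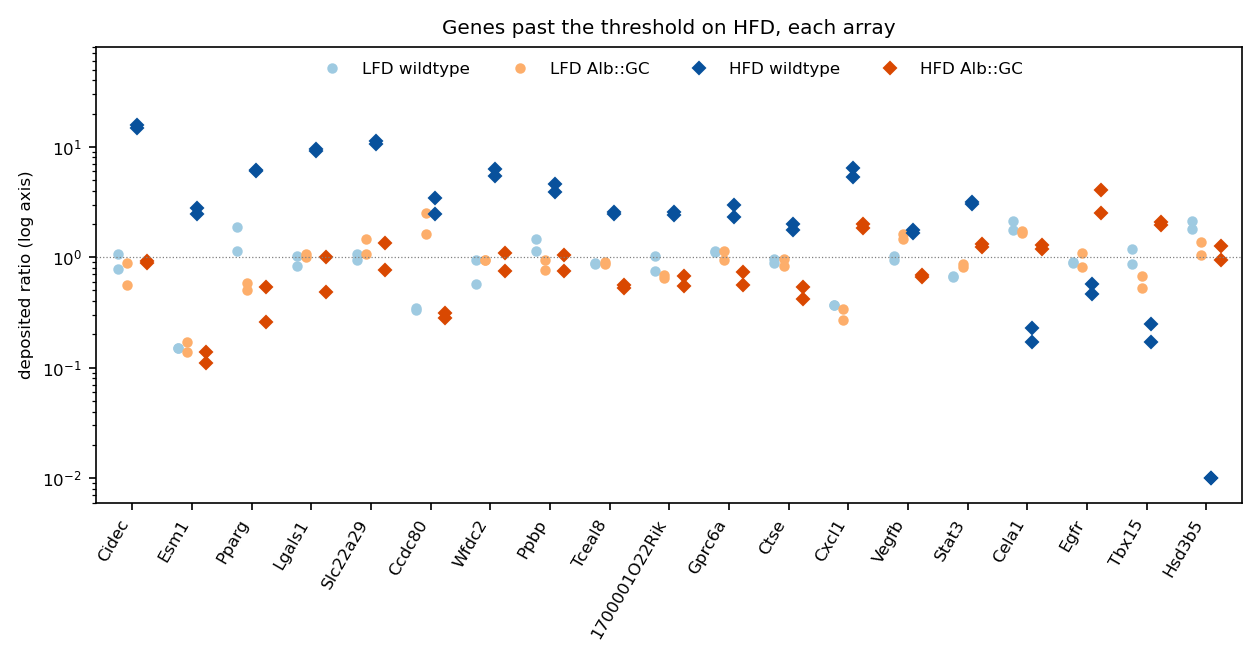
Deposited ratio of each array (log axis) for the 19 genes whose representative probe set passed an adjusted p of 0.05, ordered by their log2 difference, with Cidec at the lower and Hsd3b5 at the higher end. Points are single arrays, 2 per group; dark blue HFD wildtype points stand apart from dark orange HFD Alb::GC points in each gene.

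No transcript of the ISR lists passed the threshold on HFD. Of 19 measured targets of ATF4 and CHOP, none passed, 2 were lower by at least 2-fold, and the median was -0.16 (0.47 on the spike-in scaling), against a 2-fold background of 6.92% of genes. The 2 were Vldlr, given above, and Nupr1, a stress-induced chromatin protein, at 3.65 and 2.43 against 0.67 and 0.97 (-1.82 ± 0.35, adjusted p = 0.123). Atf4 stood at 1 and 0.93 against 1 and 0.83, and Ddit3, the gene of CHOP, at 0.74 and 0.93 against 0.74 and 0.66. Trib3, a target of both, had 0.71 and 0.81 against 0.83 and 0.73, so all 3 overlapped between the groups. Other probe sets of Atf4 gave 0.75 and 0.23. Asns, asparagine synthetase, did not overlap, but on the higher side, at 0.59 and 0.66 against 0.88 and 0.82 (0.42 ± 0.20, adjusted p = 0.528). Among the C/EBP factors, Cebpb had 1.4 and 1.32 against 0.92 and 1.09 (-0.42 ± 0.16), which is above 0 on the spike-in scaling, Cebpa differed by 0.15 and Cebpd by 0.40, and none passed. Eif2ak3, the gene of PERK, stood at 1.01 and 0.97 against 0.8 and 0.7 (-0.38 ± 0.18, adjusted p = 0.502). Its other probe sets gave -0.59, with overlapping groups, and -1.56 without overlap, at 0.26 and 0.88 against 0.1 and 0.17. None of the 14 genes of eIF2 kinases, phosphatases and eIF2B subunits differed by 2-fold at its representative probe set. For Eif2s2 that probe set gave -0.45, another gave -1.09 without overlap, and the rest lay between -0.12 and 0.21.

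Endoplasmic reticulum (ER) chaperones and degradation genes leaned higher in HFD Alb::GC. No member passed, but 15 of 22 did not overlap on the higher side and 1 on the lower, with a median of 0.39 and 2 members past 2-fold. Creld2, an ER stress-induced disulfide isomerase, had ratios of 0.9 and 1.1 in wildtype against 2.27 and 2.55 in Alb::GC (1.23 ± 0.22, adjusted p = 0.107). Manf, a secreted ER stress protein, stood at 1.02 and 1.03 against 1.7 and 1.59 (0.66 ± 0.14, adjusted p = 0.171). Hspa5, the gene of the chaperone BiP, had 1.05 and 1.11 against 1.53 and 1.6 (0.52 ± 0.17), and Derl3 was the other member past 2-fold. Calr, Pdia3 and Dnajb9 overlapped, and Xbp1 stood at 0.87 and 1.41 against 1.07 and 0.59, but its 3 other probe sets gave 0.34 to 0.64.

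Large housekeeping groups lay near the middle of all genes. None of 48 oxidative phosphorylation genes differed by 2-fold (median -0.10, and 0.54 on the spike-in scaling), although 25 did not overlap on the lower side and 4 on the higher. None of 32 cytosolic ribosomal protein genes (median 0.01), 31 proteasome genes (0.10) or 22 translation factor genes (0.00) did either. The same held for 15 cholesterol synthesis genes (median -0.02, and 0.61 on that scaling) and 9 gluconeogenesis genes (0.25). G6pc had 0.43 and 0.53 in wildtype against 0.68 in both Alb::GC arrays (0.47 ± 0.19), and Pck1 overlapped at 0.99 and 1.02 against 0.95 and 1.08.

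**Figure D5:**
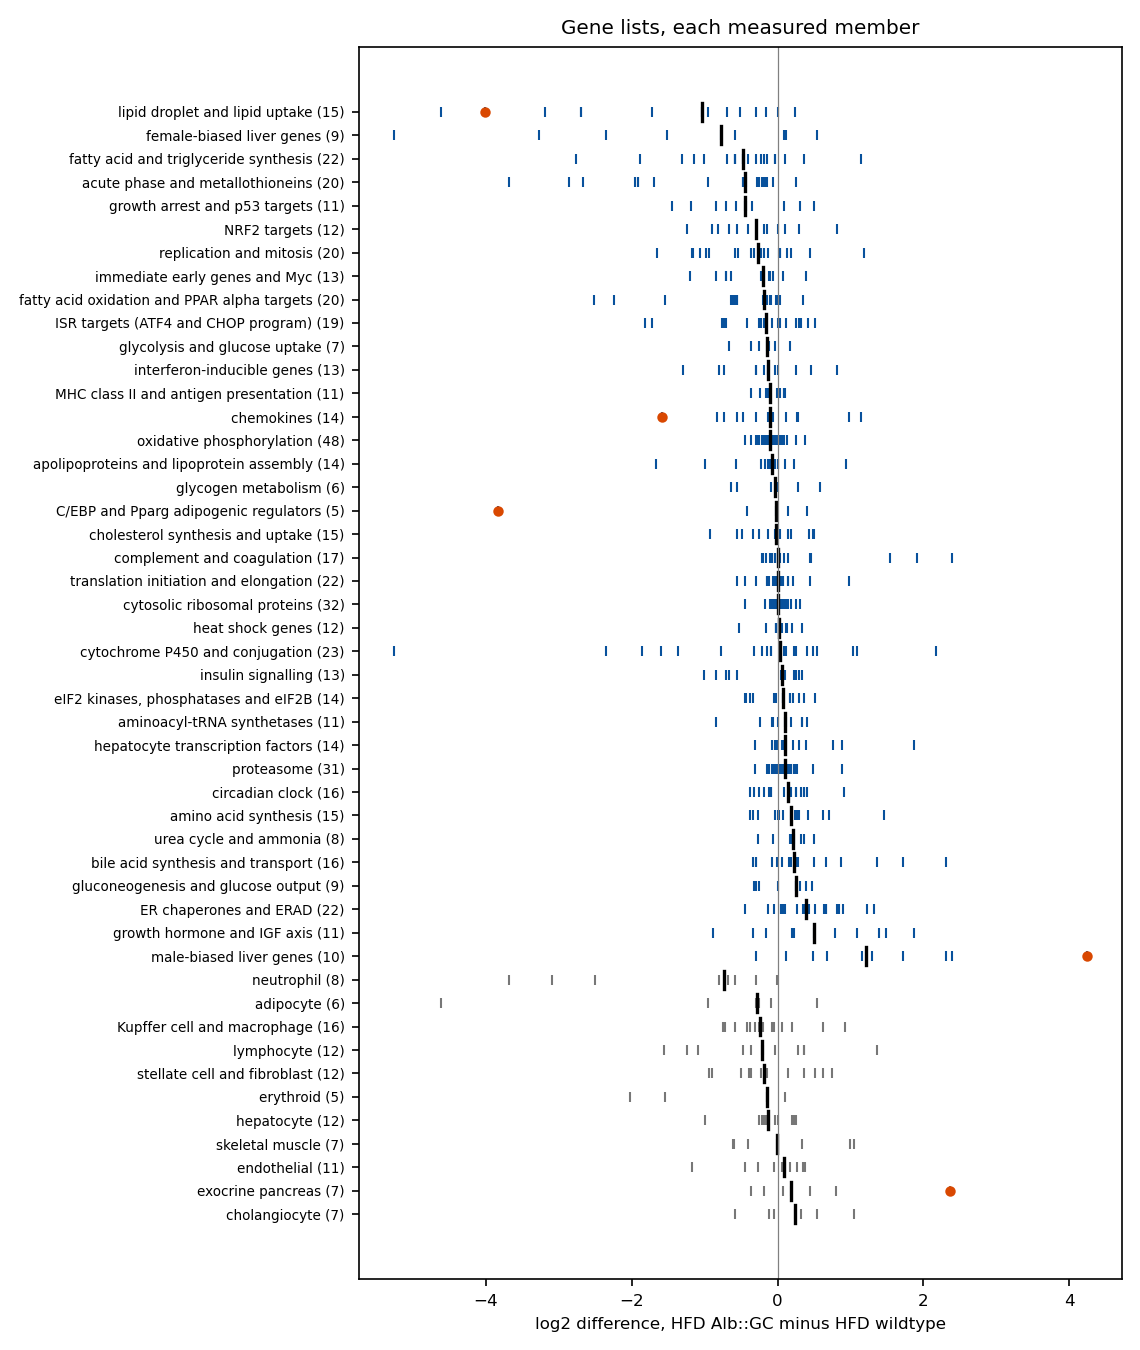
Log2 difference of each measured member (ticks) of 48 gene lists, Alb::GC minus wildtype on HFD, with pathway lists in blue above and cell type markers in grey below, and list sizes in brackets. Black bars are list medians, from -1.03 for lipid droplet genes to 1.22 for male-biased genes, and orange points are members past an adjusted p of 0.05. On the spike-in scaling 24 of the 27 medians below 0 turn above 0, all but those of the lipid droplet, female-biased and neutrophil lists.

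On LFD, where the same genotype contrast used other arrays, no probe set passed (limma, smallest adjusted p = 0.0818), against 2337 at an unadjusted p under 0.05. On the spike-in scaling 2259 passed higher and 27 lower. The difference between the HFD and LFD genotype contrasts was tested as an interaction, and again none passed, with a smallest adjusted p of 0.087 and 2517 at an unadjusted p under 0.05. An HFD-specific genotype difference is thus not shown for any gene at this threshold. Averaged over the diets, none passed either (smallest adjusted p = 0.0717, 2596 unadjusted).

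The smallest interaction p belonged to genes with HFD values far from LFD ones. Ccdc80, a secreted matrix protein, had ratios of 3.41 and 2.44 in HFD wildtype against 0.28 and 0.31 in HFD Alb::GC (-3.09 ± 0.27, adjusted p = 0.044). On LFD the order turned, with 0.33 and 0.35 in wildtype against 1.62 and 2.51 in Alb::GC (2.41 ± 0.27, adjusted p = 0.0992). Its interaction was -5.50 ± 0.39 (adjusted p = 0.087), and its other probe set gave -0.43 on HFD. Chek1, a checkpoint kinase, and Lsm7, an RNA-binding protein, had interactions of 3.71 and 2.36 (adjusted p = 0.089 for both), with LFD differences of -2.06 and -1.43 and HFD differences of 1.65 and 0.92. The other Chek1 probe sets gave -0.29 to 1.18 on HFD. For Cidec, the interaction was -3.63 ± 0.37 and for Hsd3b5 4.94 ± 0.47, with an adjusted p of 0.089 in each. Pparg had -2.49 ± 0.50 (adjusted p = 0.192). With a variance prior without trend, 5 probe sets passed the interaction, those of Hsd3b5, Ccdc80, Pafah1b1, Rbm39 and Esm1, named here after their values were seen.

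In wildtype, HFD against LFD is set by the same HFD wildtype arrays, so its values are given only side by side. It stood at 3.98 for Cidec, 2.02 for Pparg, 3.27 for Lgals1, 3.82 for Cxcl1 and 2.14 for Stat3, and at -5.06 for Hsd3b5 and -3.00 for Cela1. The genotype differences on HFD were -4.01, -3.84, -3.66, -1.59, -1.24, 4.25 and 2.37 in the same order.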

How the data were processed

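Liver RNA of the diet experiment was measured on 8 arrays, 2 per group, grouped by their labels. For LFD wildtype replicate 2, whose labels disagree on the genotype, the description decided. The authors deposited a ratio per probe set, read from the values because the sources used here name neither its reference nor the software. The number of arrays limits the precision. After leaving out 64 control probe sets, 0.05 was added and log2 taken. The 4 group means of the 8 arrays were fitted with limma 3.58.1 (R 4.3.3; eBayes with trend; 4 residual and 2.3 prior degrees of freedom), with Benjamini-Hochberg adjustment over 22626 probe sets at 0.05, two-sided. An exact permutation test of 2 against 2 arrays cannot go below p = 0.333. Symbols came from the platform annotation (20380 probe sets with 1, 691 with several, 1555 with none). A gene was represented by its probe set of highest mean log2 over 16 arrays, which can favour probe sets that are high in a group. Steps were tested on simulated data, and plots drawn with matplotlib 3.10.9 in Python 3.11.15.

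Named genes are up to 15 per direction by size past the threshold, filled by smallest p among non-overlapping 2-fold differences, up to 4 passing or 2 smallest-p members per list, 5 per direction for the interaction, and fixed ISR and lipid genes. Other genes were named after their values were seen. The members and lists were chosen with earlier results of these data known. Alternatives covered the offset, scaling, variance prior, filter, probe set rule and each array left out. The spike-in scaling was added after the data were seen.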

Additional observations from a re-analysis of the deposited data

Results flagged for a closer look

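The 18 hybridization spike-in probe sets lie outside the gene measurements and parted the genotypes. Their median log2 difference, Alb::GC minus wildtype, was -0.72 on HFD, with a range of -1.02 to -0.43, and no array overlapped for any of the 18. On LFD it was -0.72, with a range of -0.95 to -0.25. A scaling on these controls moved the median of all probe sets by 0.63 and turned the sign of 25 of 147 probe sets named or called. Of these, 0 were among the 30 past the threshold, whose differences were all too large for that shift to turn. Groups of 2 arrays were too small to look for outlying arrays.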

How the results depend on the processing

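The 8 higher and 22 lower calls on HFD became 0 and 0 with quantile normalization and with only the 4 HFD arrays, 5 and 10 without a trend in the variance prior, and 2 and 2 with a robust prior. An offset of 0.01 left 14 lower calls and an offset of 0.2 gave 35. Median centring and the filter on low values stayed within 1.5 times. Leaving out each array gave 0 to 0 in both directions for HFD, and likewise for LFD, the interaction and the average. Without the trend the interaction had 1 higher and 4 lower. The spike-in scaling, chosen after seeing the data, gave 1573 higher and 60 lower on HFD, 2259 and 27 on LFD, and 12149 and 52 averaged over the diets. For HFD against LFD in wildtype, quantile normalization gave 848 lower and the spike-in scaling 993 higher, against 1804 higher and 1499 lower. Leaving out an array gave 37 to 1627 higher and 10 to 963 lower, with 64 and 37 higher without HFD wildtype replicates 1 and 2. The non-overlap count of at least 2-fold ran over 741 to 1255 higher and 1014 to 1569 lower with each array left out, and down to 515 and 775 with an offset of 0.2. Without an HFD array the non-overlap rule compares 1 array with 2, which is a looser condition, and any smaller fit has fewer residual degrees of freedom. How far this accounts for the changes, and any other cause, was not tested.

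Signs turned for some genes with arrays left out, with scaling and with the choice of probe set, the last also for Egfr and Tbx15, whose representative probe sets passed. Leaving out each HFD array, values ran from -0.21 to 0.05 for Atf4, -0.14 to 0.09 for Cpt1a, -0.11 to 0.02 for Dgat2, -0.46 to 0.13 for Fgf21, -1.17 to 0.05 for Pdk4 and -0.05 to 0.12 for Trib3. With quantile normalization Cpt1a was at 0.25, and with centring Pck1 at 0.00. Pck1 ran from -0.08 to 0.10. With the probe set of smallest spread, values were 0.39 for Bub1, -0.29 for Chek1, 0.09 for Cpt1a, -0.07 for Eef1d, -0.12 for Egfr, 0.01 for Eif2s2, 0.19 for Fabp4, 0.10 for Iars, -0.24 for Iqgap1, -0.02 for Psma5, 0.16 for Ptpn1, 0.44 for Srebf2 and -0.03 for Tbx15. With the mean of probe sets, they were 0.10 for Acly, 0.30 for Atf4, 0.03 for Cpt1a and -0.16 for Iqgap1.

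No paired analysis was possible because the labels give no replicate numbers shared between the groups.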

Other observations

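Genes of insulin signalling, antioxidant defence and growth arrest were not described above. Pik3r1, the regulatory subunit of PI3 kinase, had ratios of 3.92 and 2.82 in HFD wildtype against 1.82 and 1.45 in HFD Alb::GC (-1.01 ± 0.22, limma adjusted p = 0.165). It was the 1 of 13 insulin signalling genes past 2-fold, but its other probe sets gave -0.69 and -0.05, the latter with overlapping groups. Ptpn1, a phosphatase of the insulin receptor, had 2.93 and 3.06 against 1.94 and 1.82 (-0.66 ± 0.18, adjusted p = 0.254), and another Ptpn1 probe set gave 0.16. Of 12 NRF2 targets, 7 did not overlap on the lower side, and the median was -0.29, which is 0.34 on the spike-in scaling. Gclc, which limits glutathione synthesis, came closest to the threshold, at 2.25 and 2.16 against 0.89 and 0.92 (-1.24 ± 0.14, adjusted p = 0.052). Of 11 growth arrest and p53 targets, 8 did not overlap on the lower side, with a median of -0.45, which is 0.18 on that scaling. Cdkn1a, the cell cycle inhibitor p21, stood at 1.04 and 0.96 against 0.59 and 0.28 on HFD (-1.19 ± 0.34, adjusted p = 0.276) and at 0.66 and 0.59 against 2.26 and 3.14 on LFD, where its difference was 2.01. The sign thus differed between the diets, and its interaction of -3.20 did not pass (adjusted p = 0.139).

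Apolipoprotein genes were mostly level, with 1 of 14 past 2-fold. Apoa4, a protein of lipid-rich lipoproteins, had 1.72 and 1.7 in HFD wildtype against 0.6 and 0.42 in HFD Alb::GC (-1.67 ± 0.29, adjusted p = 0.105), with LFD ratios of 0.38 to 0.65. Apom stood the other way, at 0.39 and 0.42 against 0.8 and 0.84 (0.94 ± 0.22, adjusted p = 0.204). The clock gene Per1 was higher in Alb::GC on both diets, at 0.88 and 0.77 against 1.49 and 1.71 on HFD and 0.23 and 0.39 against 0.84 and 0.95 on LFD (0.91 ± 0.29 and 1.43, neither past the threshold), while the median of 16 clock genes was 0.14.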
